A study of Mus musculus with 48 samples.

Results

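The class I phosphoinositide 3-kinase (PI3K) subunits were followed in mouse liver through 7 genes, the 4 catalytic subunits Pik3ca, Pik3cb, Pik3cd and Pik3cg and the 3 regulatory subunits Pik3r1, Pik3r2 and Pik3r3. They were chosen by name, and all non-control probes that the array design assigns to these symbols were taken, which gave 12 of 56605 probes. All 7 genes passed the filter on dim probes, through 9 probes, among 20487 of 37074 genes in all.

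The samples were livers of male mice, 1 array per mouse and 6 mice in each of 8 groups. LKO mice carry floxed alleles of the gene for p110α together with an albumin-Cre transgene, and LWT mice carry the same floxed alleles without Cre, so the floxed alleles are common to both. Albumin-Cre acts in hepatocytes, and the paper describes the deletion as specific to them. Whether the other cells of the liver keep the gene intact was not tested here. From 12 weeks of age the mice had received a control diet (CTRL) or a high-fat diet (HFD) for 12 weeks, and they were killed at ZT16 (hours after lights on), either fed ad libitum or FASTED for 24 h. The comparisons ask how the genotype, the fast and the diet bear on the mRNA of the PI3K subunits. A further question is whether the fast acts differently in the 2 genotypes.

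Class I PI3K enzymes are made of a catalytic p110 protein and a regulatory protein. They phosphorylate the membrane lipid PIP2 to PIP3 when a receptor such as the insulin receptor is active, and PIP3 recruits Akt. In hepatocytes this signal lowers glucose output and raises lipid synthesis. Pik3ca encodes p110α and Pik3cb encodes p110β, which are present in most cells. Pik3cd encodes p110δ and Pik3cg encodes p110γ, both best known from leukocytes. Pik3r1 encodes p85α and its shorter forms, Pik3r2 encodes p85β and Pik3r3 encodes p55γ. The regulatory proteins bind phosphorylated tyrosines on receptors and on the insulin receptor substrates (IRS), and they both stabilise and restrain p110.

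Because each result is a reading of a single 60-base probe, the first 30 bases of the probes on which the results turn are shown, 5′ to 3′. The capitals in the Pik3ca probe mark a run of AAG triplets.
Pik3ca: agaAAGAAGAAGAAGaatggaatctggttg
Pik3cb: caatgtgatttttcaatggtattagttcaa
Pik3r2: ctgcgctgttctccagactgtgcaatctcc
Pik3r3: ttctccaagacttggaatggttggcagact
The Pik3ca probe lies on chromosome 3 of mm9, on the forward strand, at chr3:32364747-32364806, and begins at base 6255 of its transcript. The Pik3cb probe lies on the reverse strand at chr9:98939114-98939173, the Pik3r2 probe on the reverse strand at chr8:73292173-73292232 and the Pik3r3 probe on the forward strand at chr4:115975600-115975659. The Pik3r1 probe is shown whole because it is the only one of those kept that spans more of the genome than its own length. It covers 1043 bases on the reverse strand, at chr13:102459406-102460448, and so crosses an intron.
Pik3r1: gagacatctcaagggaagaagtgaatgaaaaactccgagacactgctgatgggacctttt
The probe does not separate the forms of the protein that Pik3r1 encodes.

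Levels below are normalised log2 signals of 1 probe and are never compared between probes. A difference is a log2 fold change from a limma fit over all 48 arrays, given with its standard error (SE). Benjamini-Hochberg adjustment of its p-value took in every probe that passed the filter, and a difference was called at an adjusted p of at most 0.05. Because arrays are weighted in the fit, a fold change need not equal the plain difference of 2 group means. Between 50.1% and 57.4% of probes were well above background on each array, no spot was saturated, and the number of arrays limits the precision. All 7 hepatocyte markers looked at were above background on all 48 arrays, with albumin (Alb) between 18.82 and 18.95. Every one of 6 slides held all groups, and washing took place in 2 batches, each with 3 mice per group. In bulk liver, fewer cells of a type and less RNA per cell cannot be told apart.

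Over the 4 comparisons of genotype, 11 of 28 tests on the members were called, 3 with a higher and 8 with a lower signal in LKO mice, where 29% of tests over all genes were called. The 3 higher ones all came from the Pik3ca probe, and among the other 6 genes 8 of 24 tests were called, all lower. By setting, 3, 4, 1 and 3 of 7 members were called in fed CTRL, fed HFD, fasted CTRL and fasted HFD mice, where the shares over all genes were 21.5%, 32.9%, 24.8% and 36.8%. For fasting, 13 of 28 were called, 4 higher and 9 lower, where the share over all genes was 31.2%. Without the Pik3ca probe, 11 of 24 were called for fasting, 2 higher and 9 lower. Only 2 of 28 were called for diet, where the share over all genes was 15.8%. With a fold over 1.5 also required, 3 of 28 remained for genotype, 4 of 28 for fasting and 0 for diet and for interactions, where the shares over all genes were 4.93%, 5.78%, 2.69% and 1.61%. Of the 26 calls, 9 were of Pik3r3, 5 each of Pik3ca and Pik3cb, 4 of Pik3r1, 2 of Pik3r2, 1 of Pik3cd and 0 of Pik3cg. The plot of signal per mouse gives the values behind them.

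**Figure D1:**
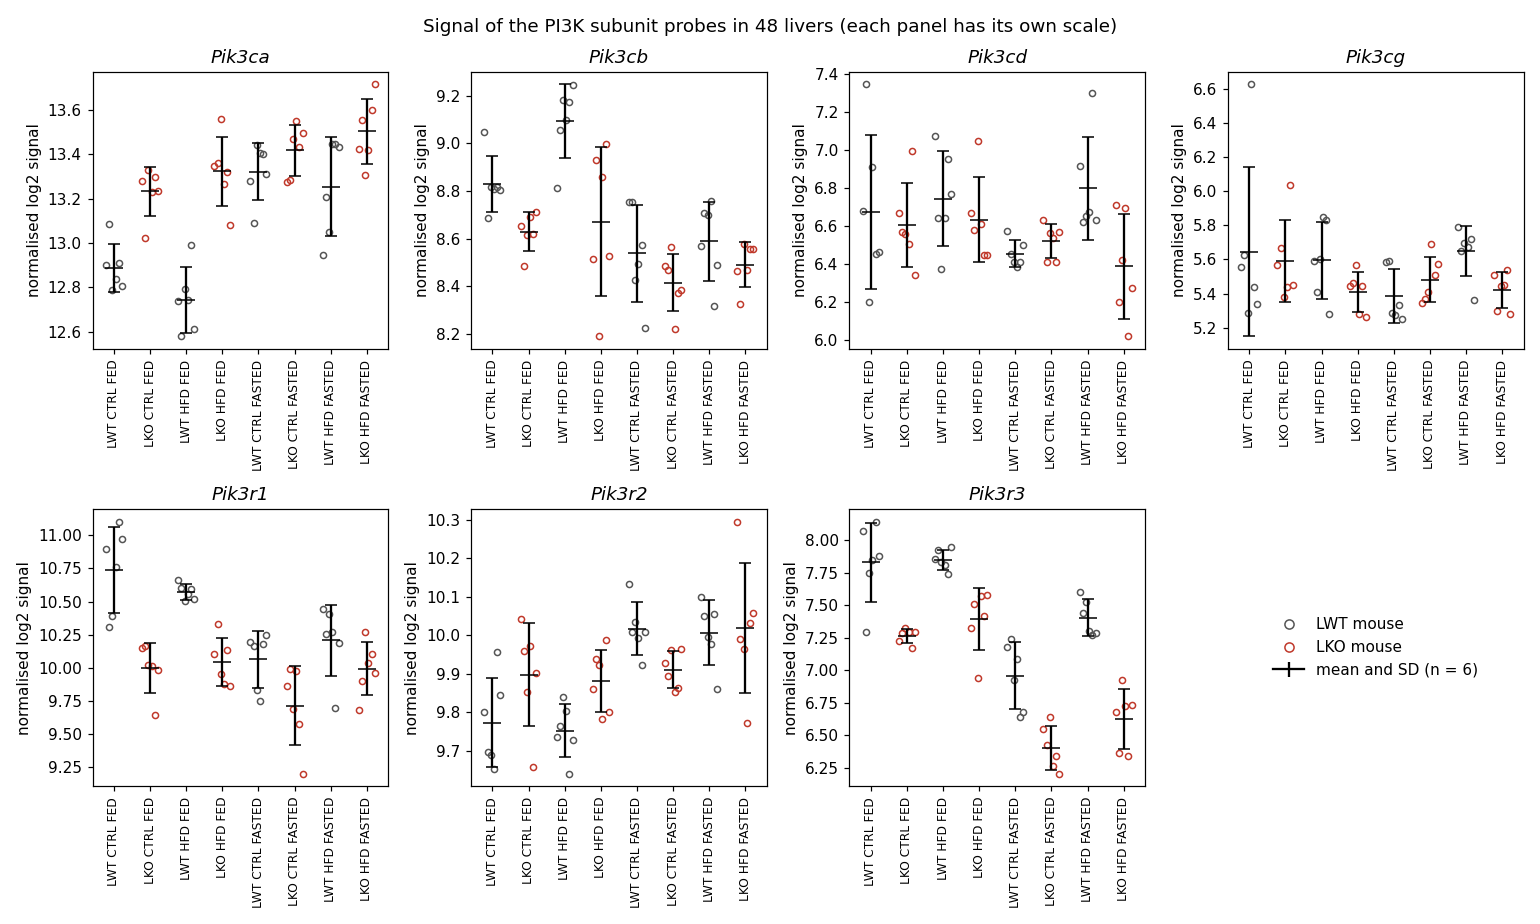
Normalised log2 signal of the brightest probe of each of the 7 PI3K subunit genes in each of 48 mice, by group, with the mean and SD of 6 mice; grey circles are LWT and red circles LKO mice, and each panel has its own scale. Pik3r3 stepped down from a mean of 7.83 in fed LWT mice on CTRL diet to 6.40 in fasted LKO mice on CTRL diet; the Pik3cg probe was well above background on 19 of 48 arrays.

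Among the regulatory subunits, Pik3r3 was lower in LKO livers in each of the 4 settings. In fed mice on CTRL diet its signal ran from 7.18 to 7.33 in LKO mice (median 7.29) and from 7.29 to 8.14 in LWT mice (median 7.86). The difference was -0.60 ± 0.10 (SE, n = 6, limma adjusted p = 3.22e-05), which is 1.52-fold lower. The ranges overlapped through 1 LWT mouse at 7.29. In fed mice on HFD the LKO mice lay between 6.94 and 7.58 (median 7.47) and the LWT mice between 7.74 and 7.95 (median 7.84), a difference of -0.41 ± 0.10 (SE, n = 6, limma adjusted p = 0.00192). No LKO mouse reached an LWT mouse here, which was true of 13% of all genes in this comparison.

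After the fast, Pik3r3 ran from 6.21 to 6.64 in LKO (median 6.38) and from 6.64 to 7.24 in LWT mice (median 7.01) on CTRL diet, a difference of -0.51 ± 0.10 (SE, n = 6, limma adjusted p = 0.000153). On HFD it ran from 6.35 to 6.92 in LKO (median 6.70) and from 7.27 to 7.60 in LWT mice (median 7.37), a difference of -0.79 ± 0.11 (SE, n = 6, limma adjusted p = 1.78e-07) or 1.73-fold. The genotypes did not overlap on HFD, and on CTRL diet the nearest mice of the genotypes were level at 6.64 to 2 decimals. Groups without overlap were seen for 10.3% of all genes on CTRL diet and 14% on HFD. Of all genes, 3.85% were called lower in LKO mice in all 4 comparisons. The means over the 8 groups fell from 7.85 ± 0.08 (SD, n = 6) in fed LWT mice on HFD and 7.83 ± 0.30 on CTRL diet to 6.63 ± 0.23 in fasted LKO mice on HFD and 6.40 ± 0.17 on CTRL diet. Between neighbours in that order, 3 of 7 steps exceeded the larger of both SDs.

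Pik3r1 was lower in LKO livers of fed mice. On CTRL diet its signal ran from 9.64 to 10.16 in LKO (median 10.02) and from 10.31 to 11.10 in LWT mice (median 10.83). With a difference of -0.76 ± 0.12 (SE, n = 6, limma adjusted p = 1.3e-05), or 1.70-fold, this was the largest genotype difference of the members on this diet. On HFD the LKO mice lay between 9.86 and 10.33 (median 10.03) and the LWT mice between 10.50 and 10.66 (median 10.57), a difference of -0.48 ± 0.12 (SE, n = 6, limma adjusted p = 0.00231). In both settings the genotypes did not overlap, as for 6.21% of all genes on CTRL diet and 13% on HFD. In fasted mice the ranges overlapped and the difference did not pass the threshold, at -0.27 ± 0.12 on CTRL diet (SE, n = 6, limma adjusted p = 0.097) and -0.24 ± 0.13 on HFD (SE, n = 6, limma adjusted p = 0.142).

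Pik3r2 did not pass the threshold between genotypes in any setting. Its differences were 0.11 and 0.13 in fed mice on CTRL diet and HFD, and -0.10 and 0.00 in fasted mice, each with an SE of 0.06. Averaged over the 4 settings, a contrast added after the values had been seen, the difference was 0.04 ± 0.03 (SE, limma adjusted p = 0.317), against -0.44 ± 0.06 for Pik3r1 (SE, limma adjusted p = 7.96e-08) and -0.58 ± 0.05 for Pik3r3 (SE, limma adjusted p = 8.61e-13). Over all genes, 54.8% were called in this averaged contrast. The second Pik3r2 probe was well above background on 1 of 48 arrays and was left out.

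**Figure D2:**
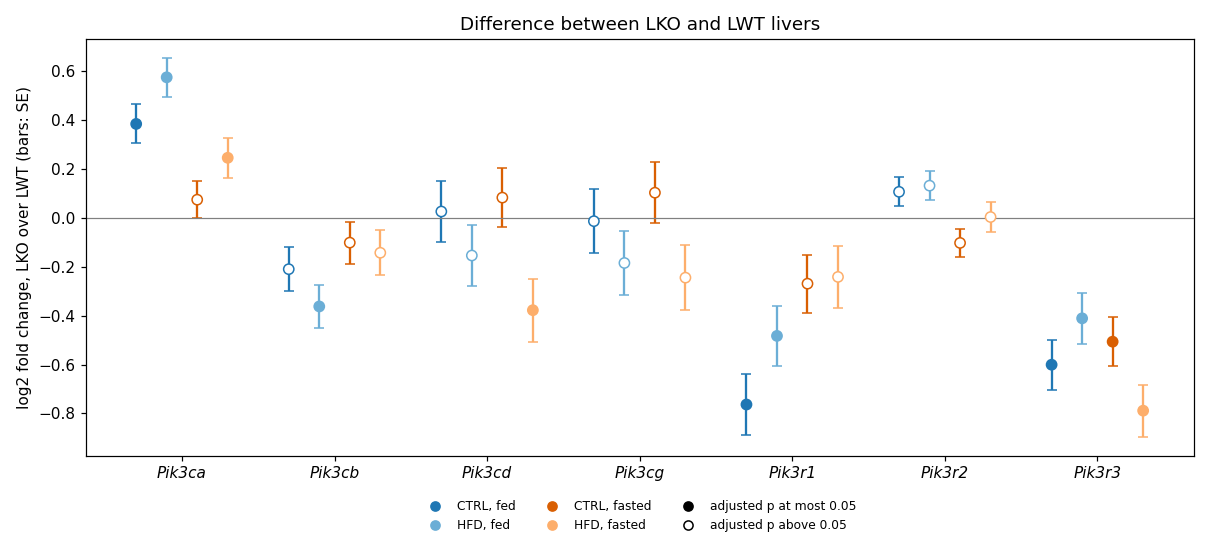
Log2 fold change of LKO over LWT mice with its SE for each PI3K subunit gene in the 4 settings, fed or fasted on CTRL diet or HFD, with filled points for an adjusted p of at most 0.05. Pik3r3 is below 0 and filled in all 4 settings, Pik3r1 in both fed settings, and Pik3ca is above 0.

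Of the catalytic subunits, Pik3cb, the gene for the p110 form that remains in LKO hepatocytes, was lower in LKO livers of fed mice on HFD. There its signal lay from 8.19 upwards in LKO (median 8.69) and between 8.81 and 9.24 in LWT mice (median 9.13). The difference was -0.36 ± 0.09 (SE, n = 6, limma adjusted p = 0.00168), and the groups overlapped. Elsewhere it was -0.21 in fed mice on CTRL diet (limma adjusted p = 0.0938), -0.10 in fasted mice on CTRL diet and -0.14 in fasted mice on HFD, none of which passed. The second Pik3cb probe, further upstream in the transcript, had -0.19 ± 0.08 in fed mice on HFD (SE, limma adjusted p = 0.058). Averaged over the 4 settings, the brighter probe had a difference of -0.20 ± 0.04 (SE, limma adjusted p = 0.000172) and the second probe had -0.08 (limma adjusted p = 0.0888).

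Pik3cd had a call between genotypes in fasted mice on HFD. Its signal there was 6.02 to 6.71 in LKO (median 6.35) and 6.62 to 7.30 in LWT mice (median 6.66), a difference of -0.38 ± 0.13 (SE, n = 6, limma adjusted p = 0.0202) with overlapping groups. The second probe kept for this gene had -0.10 ± 0.11 (SE, limma adjusted p = 0.529), so the probes disagree on the call. The call of the brighter probe was also lost without LWT replicate 5 (limma adjusted p = 0.0578), LKO replicate 2 (limma adjusted p = 0.053) or LKO replicate 5 (limma adjusted p = 0.0636). In the same comparison, 3 of 9 measured leukocyte and macrophage markers were lower and 1 higher in LKO mice, where 36.8% of all genes were called. The summed signal of that list was 14.59 to 15.16 in LKO and 14.61 to 15.68 in LWT mice on the log2 scale, with Cd79a below the filter, and the part of these cells in the Pik3cd difference was not tested. The Pik3cd probe was dim, with raw signals of 63.5 to 165.5 against local backgrounds of 19 to 39.

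Pik3cg was not called in any comparison. Its probe was well above background on 19 of 48 arrays, with between 1 and 3 of 6 arrays in 7 groups and 5 of 6 in fasted LWT mice on HFD. It passed the filter through that group alone, so no difference is given for it. At this signal a difference below the background cannot be seen.

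The Pik3ca probe gave a higher signal in LKO mice. In fed mice on CTRL diet it lay between 13.02 and 13.33 in LKO (median 13.26) and between 12.79 and 13.09 in LWT mice (median 12.87), a difference of 0.39 ± 0.08 (SE, n = 6, limma adjusted p = 0.000419). In fed mice on HFD the ranges were 13.08 to 13.56 and 12.58 to 12.99, without overlap, and the difference was 0.58 ± 0.08 (SE, n = 6, limma adjusted p = 2.99e-07). In fasted mice the difference was 0.08 ± 0.08 on CTRL diet (SE, n = 6, limma adjusted p = 0.531) and 0.25 ± 0.08 on HFD (SE, n = 6, limma adjusted p = 0.0172). The last call was lost without LWT replicate 1 (limma adjusted p = 0.0526), LWT replicate 3 (limma adjusted p = 0.0802) or LKO replicate 6 (limma adjusted p = 0.058). The probe lies far along the transcript, outside the deleted exons, and so is no check of the deletion.

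This probe shares its AAG run with other probes, and the comparison that follows was made after its values had been seen. The 3 genes whose signal over the 48 arrays was most like that of the Pik3ca probe were Prickle1 (Pearson r = 0.99, Spearman rho = 0.98), Stra6 (r = 0.98, rho = 0.97) and Il22ra1 (r = 0.98, rho = 0.97). These correlations are descriptions over arrays that share slides and conditions. The first 30 bases of their probes are shown with the AAG run in capitals.
Prickle1: agAAGAAGAAGgctatttccttgcccaccc
Stra6: cagcctcaggccggcagAAGAAGAAGAAGg
Il22ra1: AAGAAGAAGcctttactctctgctgtcagg
Of the 20 probes closest to the Pik3ca probe, 19 hold AAGAAGAAG, a run that 105 of 30751 other probes hold (0.341%). No other member probe holds it. Of the 95 probes with r over 0.8, 34 hold it, and the median r of all 105 was 0.58, with a range from -0.80 to 0.99.

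The longer run AAGAAGAAGAAG, which the Pik3ca probe also holds, is found in 33 other probes. Their median correlation with the Pik3ca probe was 0.88, against 0.04 for the probes without it. In fed mice 20 of the 33 were called higher in LKO mice on CTRL diet and 31 on HFD, with none lower, where 10.9% and 16.6% of all genes were called higher. Their median difference was 0.24 and 0.40 in fed mice, and 0.06 and 0.15 in fasted mice on CTRL diet and HFD. For the fast, 28 of 33 were called higher and 2 lower in LWT mice on CTRL diet, and 29 higher and 1 lower on HFD, with medians of 0.28 and 0.36. In LKO mice 1 was higher and 1 lower on CTRL diet, and 0 higher and 1 lower on HFD, with medians of 0.10 and 0.11. Called in either direction were 32.5% and 28.4% of all genes in LWT and 35.4% and 28.5% in LKO mice. The values of the Pik3ca probe thus moved with those of probes for unrelated genes that share its AAG run, as the plot of these probes shows. Whether the signal of the probe comes from Pik3ca transcripts was not tested, and no statement on the level of Pik3ca mRNA is drawn from it.

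**Figure D3:**
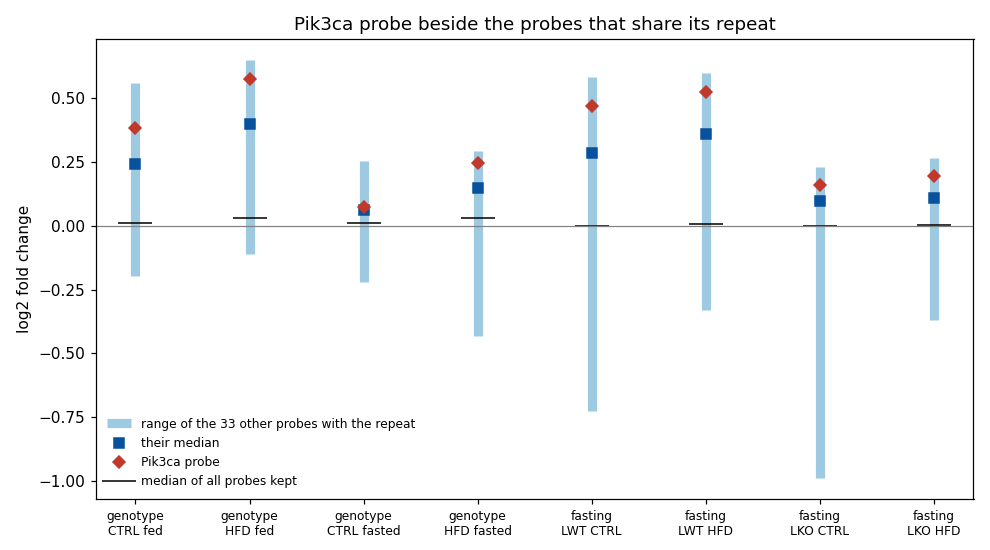
Log2 fold change of the Pik3ca probe (red diamonds) in the 4 genotype and the 4 fasting comparisons, beside the median (blue squares) and the range (light bars) of the 33 other probes that hold the same 12-letter run, and the median of all probes kept (black lines). The Pik3ca probe lies inside the range of these probes in all 8 comparisons.

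Fasting lowered Pik3r3 in both genotypes and on both diets. In LWT mice on CTRL diet it went from 7.29 to 8.14 when fed (median 7.86) to 6.64 to 7.24 after the fast (median 7.01), a difference of -0.93 ± 0.10 (SE, n = 6, limma adjusted p = 9.86e-10) or 1.91-fold. On HFD the LWT mice went from a median of 7.84 to 7.37, a difference of -0.45 ± 0.10 (SE, n = 6, limma adjusted p = 0.000401). In LKO mice the medians went from 7.29 to 6.38 on CTRL diet and from 7.47 to 6.70 on HFD. Those differences were -0.84 ± 0.10 (SE, n = 6, limma adjusted p = 1.12e-08) and -0.83 ± 0.11 (SE, n = 6, limma adjusted p = 3.52e-07). Fed and fasted mice did not overlap in any of the 4 comparisons, as for 11.8% and 10.9% of all genes in LWT mice on CTRL diet and HFD, and for 15.6% and 8.44% in LKO mice. Of all genes, 4.95% were called lower after the fast in all 4.

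Pik3r1 fell after the fast in LWT mice. On CTRL diet it went from 10.31 to 11.10 when fed (median 10.83) to 9.75 to 10.25 (median 10.17), a difference of -0.71 ± 0.12 (SE, n = 6, limma adjusted p = 9.2e-06) with no overlap. On HFD it went from 10.50 to 10.66 (median 10.57) to 9.70 to 10.45 (median 10.26), again with no overlap, and the difference was -0.33 ± 0.12 (SE, n = 6, limma adjusted p = 0.0296). That call was lost without replicate 5 of the fasted mice, at 9.70 the lowest of its group (-0.25, limma adjusted p = 0.098). In LKO mice, where the fed level was already near the fasted level of LWT mice, the difference was -0.22 ± 0.12 on CTRL diet (SE, n = 6, limma adjusted p = 0.172) and -0.09 ± 0.13 on HFD (SE, n = 6, limma adjusted p = 0.69).

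Pik3r2 moved the other way. In LWT mice on CTRL diet it went from 9.65 to 9.96 when fed (median 9.75) to 9.92 to 10.13 after the fast (median 10.01), a rise of 0.23 ± 0.06 (SE, n = 6, limma adjusted p = 0.00158). On HFD it went from 9.64 to 9.84 (median 9.75) to at least 9.86 (median 10.02), a rise of 0.25 ± 0.06 (SE, n = 6, limma adjusted p = 0.000415) with no overlap. In LKO mice the differences were 0.02 ± 0.06 and 0.13 ± 0.06 (SE, n = 6), and neither passed the threshold.

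Pik3cb fell after the fast in 3 of 4 comparisons. The differences were -0.32 ± 0.09 in LWT mice on CTRL diet (SE, n = 6, limma adjusted p = 0.00403), -0.49 ± 0.08 in LWT mice on HFD (SE, n = 6, limma adjusted p = 1.74e-05) and -0.27 ± 0.10 in LKO mice on HFD (SE, n = 6, limma adjusted p = 0.0362). In LWT mice on HFD its signal went from 8.81 to 9.24 when fed (median 9.13) to 8.32 to 8.76 (median 8.63), with no overlap. In LKO mice on CTRL diet the difference was -0.21 ± 0.09 (SE, n = 6, limma adjusted p = 0.0612). The second probe was called in the same 3 comparisons, with -0.21, -0.37 and -0.23. The call in LKO mice was lost without fed replicate 2, 4 or 5 or fasted replicate 1, 2 or 4, with values between -0.27 and -0.20 (limma adjusted p up to 0.159), and without array weights (-0.18, limma adjusted p = 0.176). It was also lost without the filter on dim probes (limma adjusted p = 0.11), without batch correction (limma adjusted p = 0.0552) and with adjustment over all contrasts together (limma adjusted p = 0.0509). Pik3cd had no call, with differences between -0.19 and 0.03.

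The Pik3ca probe rose after the fast by 0.47 ± 0.08 (SE, n = 6, limma adjusted p = 6.5e-06) and 0.52 ± 0.08 (SE, n = 6, limma adjusted p = 6.69e-07) in LWT mice on CTRL diet and HFD. Its differences in LKO mice were 0.16 and 0.19, neither of which passed. In all, 5, 5, 1 and 2 of 7 members were called for fasting in LWT mice on CTRL diet, LWT on HFD, LKO on CTRL diet and LKO on HFD. The shares over all genes were 32.5%, 28.4%, 35.4% and 28.5%.

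**Figure D4:**
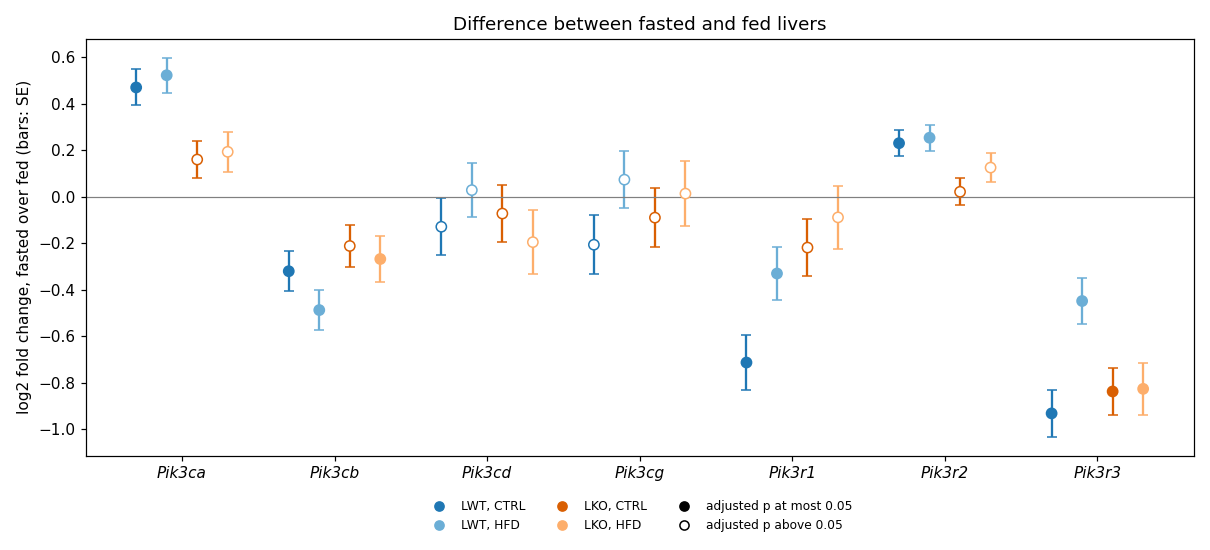
Log2 fold change of fasted over fed mice with its SE for each PI3K subunit gene in the 4 combinations of genotype and diet, with filled points for an adjusted p of at most 0.05. Pik3r3 is below -0.4 and filled in all 4, whereas Pik3r1 and Pik3r2 are filled in LWT mice only and on opposite sides of 0.

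A call in LWT and none in LKO mice is not a test of the difference, which was tested as an interaction. None of the 42 interaction tests on the members was called by limma, where 4.22% were called over all genes, and 8 had an unadjusted p of at most 0.05. By contrast, the shares over all genes were 2.83% and 4.96% for genotype by diet in fed and fasted mice, 3.92% and 3.37% for genotype by fasting on CTRL diet and HFD, and 2.36% and 7.9% for diet by fasting in LWT and LKO mice. For Pik3r1 on CTRL diet the effect of the fast was 0.49 ± 0.17 more positive in LKO mice (SE, limma adjusted p = 0.0948). It passed with adjustment over all contrasts together (limma adjusted p = 0.0386), without replicate 6 of the fasted LKO mice on CTRL diet (0.56, limma adjusted p = 0.0458) and without replicate 3 of the fed LWT mice on CTRL diet (0.61, limma adjusted p = 0.0342). For Pik3r2 on CTRL diet it was -0.21 ± 0.08 (SE, limma adjusted p = 0.145), and for Pik3r3 on HFD -0.38 ± 0.15 (SE, limma adjusted p = 0.164). Averaged over the diets, a contrast added after the values had been seen, the interaction was 0.37 ± 0.12 for Pik3r1 (SE, limma adjusted p = 0.0595) and -0.17 ± 0.06 for Pik3r2 (SE, limma adjusted p = 0.0713). The Pik3ca probe passed, with -0.32 ± 0.08 (SE, limma adjusted p = 0.00861), where 7.64% of all genes were called. The lowest adjusted p of the 42 was that of Pik3r3 in LWT mice, whose fall during the fast was smaller on HFD by 0.48 ± 0.14 (SE, limma adjusted p = 0.0539). This one passed under 5 alternatives of processing, with values from 0.42 to 0.61 and limma adjusted p from 0.0115 to 0.0496. It also passed without some single replicates and not without others. The limma adjusted p of those passes ran from 0.0191 without replicate 2 of the fed LWT mice on CTRL diet to 0.0488 without replicate 6 of the fasted LWT mice on HFD.

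HFD raised Pik3r3 in fasted LWT mice. Its signal there was 7.27 to 7.60 on HFD (median 7.37) and 6.64 to 7.24 on CTRL diet (median 7.01), a rise of 0.47 ± 0.10 (SE, n = 6, limma adjusted p = 0.000921) with no overlap, as for 5.86% of all genes. In fed LWT mice HFD raised Pik3cb, from 8.69 to 9.05 on CTRL diet (median 8.81) to 8.81 to 9.24 (median 9.13), by 0.27 ± 0.09 (SE, n = 6, limma adjusted p = 0.0195). The second Pik3cb probe gave 0.24 ± 0.08 (SE, limma adjusted p = 0.0186) and its groups did not overlap, as for 9.51% of all genes. The call of the brighter probe was lost without replicate 6 of the fed LWT mice on HFD (0.23, limma adjusted p = 0.0649) and with the replicate number as a block. It did not pass in washing batch 1 alone (0.22, limma adjusted p = 0.229) or in washing batch 2 alone (0.32, limma adjusted p = 0.188). Markers of some other cell types were also higher on HFD in LWT mice. In fasted LWT mice 1 of 2 measured adipocyte, 3 of 6 stellate cell and fibroblast and 1 of 5 bile duct markers were called higher and none lower. The summed log2 signal of the adipocyte markers there was 12.48 to 15.18 on HFD and 9.88 to 12.34 on CTRL diet, with no overlap. That of the stellate cell markers had medians of 12.50 and 12.02, and that of the bile duct markers, which follows Spp1 in the main, 11.54 and 10.72. In fed LWT mice 1, 2 and 1 of these markers were called higher and none lower. Other lists were mixed. Of 6 endothelial markers, 1 was higher and 0 lower in fed LWT mice, and 0 were higher and 2 lower in fasted ones. Of 9 measured leukocyte and macrophage markers, 0 were higher and 2 lower in fed LWT mice, and 3 were higher and 1 lower in fasted ones. The part of these cells in the differences of Pik3r3 and Pik3cb was not tested. In LKO mice 0 of 14 tests passed, the lowest adjusted p in limma being 0.296. Called shares over all genes were 24% and 15.9% in fed and fasted LWT mice, and 12.2% and 10.8% in LKO mice.

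The called differences had the same sign in both washing batches when each batch of 3 mice per group was fitted alone, in 26 of 26. For Pik3r3 the genotype difference in fasted mice on HFD was -0.97 in 1 batch and -0.58 in the other. For Pik3r1 in fed mice on CTRL diet it was -0.78 and -0.76. The batches differed in size for Pik3cb, with -0.15 (limma adjusted p = 0.375) and -0.57 (limma adjusted p = 0.0179) between genotypes in fed mice on HFD, and with -0.41 and -0.10 for the fast in LKO mice on HFD. Pik3r1 had -0.90 and -0.49 (limma adjusted p = 0.0514) for the fast in LWT mice on CTRL diet. Replicate 3 of the fed LKO mice on HFD had the lowest array weight, 0.354 where the median was 0.948. Without it, the genotype differences in fed mice on HFD were -0.38 for Pik3r3 (limma adjusted p = 0.00437), -0.46 for Pik3r1 (limma adjusted p = 0.00451) and -0.32 for Pik3cb (limma adjusted p = 0.00471), all still called.

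Markers of cells other than hepatocytes were set beside the genotype and fasting differences. Between genotypes, 21.5%, 32.9%, 24.8% and 36.8% of all genes were called in fed CTRL, fed HFD, fasted CTRL and fasted HFD mice. Of the bile duct markers, 3 of 5 were lower in LKO mice that were fed CTRL diet and 4 of 5 in each of the other settings. Their summed log2 signal was 9.55 to 10.06 in LKO and 10.64 to 11.88 in LWT mice that were fed CTRL diet, and 9.81 to 10.14 against 11.31 to 12.40 on HFD. In fasted mice it was 9.13 to 9.52 against 10.50 to 11.22 on CTRL diet and 9.25 to 9.82 against 11.18 to 11.88 on HFD. Epcam was above background on 18 and Krt7 on 28 of 48 arrays. Spp1 spanned 8.19 to 12.27 over the arrays, Sox9 6.92 to 8.06 and Krt19 5.36 to 7.90, and Krt7 and Epcam did not exceed 6.45. The bile duct sum thus follows Spp1 in the main. Of 3 adipocyte markers, Lep and Cfd were measured and Adipoq did not pass the filter. Of the measured pair, 1 was lower in LKO mice in each of the 4 settings, and 1 higher in fed mice on HFD. Cfd spanned 5.08 to 15.18 over the arrays and Lep 6.87 to 8.63, so that the sum below follows Cfd in the main. Their summed log2 signal was 7.32 to 8.03 in LKO and 9.09 to 13.39 in LWT mice that were fed CTRL diet, and 8.04 to 11.04 against 13.10 to 13.59 on HFD. In fasted mice it was 7.49 to 7.90 against 9.88 to 12.34 on CTRL diet and 7.89 to 10.99 against 12.48 to 15.18 on HFD, so that the genotypes did not overlap in any setting. Of 6 stellate cell and fibroblast markers, 3, 2, 3 and 3 were called lower and 0 higher after the fast in LWT mice on CTRL diet, LWT on HFD, LKO on CTRL diet and LKO on HFD, where 32.5%, 28.4%, 35.4% and 28.5% of all genes were called. Their summed log2 signal did not overlap in LKO mice on CTRL diet (12.21 to 12.38 fed and 11.75 to 12.05 fasted) and overlapped in the other 3 comparisons. Of the 5 bile duct markers, 3, 1, 3 and 1 were called lower and 0 higher after the fast in the same order. The medians of their summed log2 signal were 11.29 fed and 10.72 fasted in LWT mice on CTRL diet, 11.86 and 11.54 in LWT on HFD, 9.95 and 9.39 in LKO on CTRL diet and 9.99 and 9.52 in LKO on HFD. Fed and fasted mice did not overlap in this sum in LKO mice on CTRL diet and overlapped in the others. Of 6 endothelial markers, 1, 1, 3 and 5 were higher and 1, 1, 0 and 0 lower in LKO mice in fed CTRL, fed HFD, fasted CTRL and fasted HFD mice. Their summed log2 signal did not overlap in fasted mice on CTRL diet (14.11 to 14.28 in LKO and 13.68 to 14.09 in LWT mice) and overlapped in the other 3 settings. Between genotypes in the same order, 1, 1, 0 and 1 of 6 stellate cell and fibroblast markers were higher and 1, 2, 2 and 3 lower. Their median log2 fold changes were -0.09, -0.19, -0.12 and -0.51. Of 9 measured leukocyte and macrophage markers, 0, 2, 0 and 1 were higher and 1, 2, 0 and 3 lower. The part of these cells in the differences of Pik3r3 and Pik3r1 was not tested.

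The signal of the members over the 48 arrays was set beside that of all other genes, as a description. Pik3r3 had 386 genes with a Pearson r over 0.8, led by Thrsp (r = 0.93, rho = 0.90), a regulator of lipid synthesis, Cyb5b (r = 0.93, rho = 0.89) and Sfxn5 (r = 0.93, rho = 0.90). Pik3cb was most like Vac14, the scaffold of another phosphoinositide kinase complex (r = 0.86, rho = 0.87), Nmnat1 (r = 0.84, rho = 0.80) and Rpa1 (r = 0.83, rho = 0.82). Pik3cd was most like Rac2, a small GTPase of blood cells (r = 0.87, rho = 0.79), Cd48, a leukocyte surface protein (r = 0.85, rho = 0.82), and Slc38a1 (r = 0.84, rho = 0.77).

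No gene exceeded 0.8 for Pik3r1 or Pik3r2. Pik3r1 was closest to the phosphatase gene Ppm1b (r = 0.79, rho = 0.78), then to a probe for an unnamed non-coding transcript (r = 0.78, rho = 0.73) and to Tmem14c (r = 0.78, rho = 0.75). Pik3r2 was closest to Wdtc1 (r = 0.78, rho = 0.80), Pnpla1 (r = 0.75, rho = 0.73) and Igfbp4 (r = 0.73, rho = 0.67). No genes are named for Pik3cg, whose probe was well above background on 19 of 48 arrays. Among the members, Pik3r3 had r = 0.77 with Pik3cb and 0.76 with Pik3r1, and -0.41 with Pik3r2.

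The genes around PI3K were taken as 4 lists of the pathway, chosen with earlier results of these data known. Of 13 measured receptors and adaptors, 6, 7, 3 and 5 were higher in LKO mice in fed CTRL, fed HFD, fasted CTRL and fasted HFD mice, and 0, 0, 1 and 0 were lower. In this order 46.2%, 53.8%, 30.8% and 38.5% of the list were called, where the shares over all genes were 21.5%, 32.9%, 24.8% and 36.8%. The median difference of this list was 0.15, 0.25, 0.13 and 0.13, where that of all genes was between 0.01 and 0.03. Irs2, an insulin receptor substrate that binds the regulatory subunits, was higher by 1.92 ± 0.27 in fed mice on CTRL diet (SE, limma adjusted p = 8.1e-07) and by 0.87 to 1.49 in the other settings, all called. Irs1, the other main substrate in liver, was higher by 0.28 to 0.43 in all 4 settings. Egfr, the receptor of epidermal growth factor, was higher by 0.88 in fed mice on CTRL diet, 1.73 in fed mice on HFD and 0.79 in fasted mice on HFD. Met, the receptor of hepatocyte growth factor, was higher in fed mice by 0.30 and 0.54.

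Among the phosphatases that act on phosphoinositides, Inpp5e was higher in fed LKO mice by 0.27 on both diets, and Inpp4a on HFD by 0.39 in fed and 0.43 in fasted mice. Among 24 kinases and effectors downstream, 3, 3, 4 and 7 were higher and 4, 5, 1 and 4 lower in the 4 settings, which is 32.3% of tests against 29% over all genes. Akt1, a kinase recruited by PIP3, was higher by 0.24 to 0.42 and Rictor, a subunit of mTORC2, by 0.19 to 0.30 in all 4 settings. Sgk1, a kinase related to Akt, was higher in 3 settings by 0.39 to 0.41, and Mtor was lower in 3, with a difference of -0.60 in fed mice on HFD. Of 9 genes of class II, class III and accessory PI3K proteins, 3 of 36 genotype tests were called, against 29% over all genes, and 14 of 36 fasting tests (38.9%) were called, against 31.2% over all genes, 11 of them higher after the fast. Over the 4 lists together, 29.7% of genotype tests and 41.5% of fasting tests were called.

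**Figure D5:**
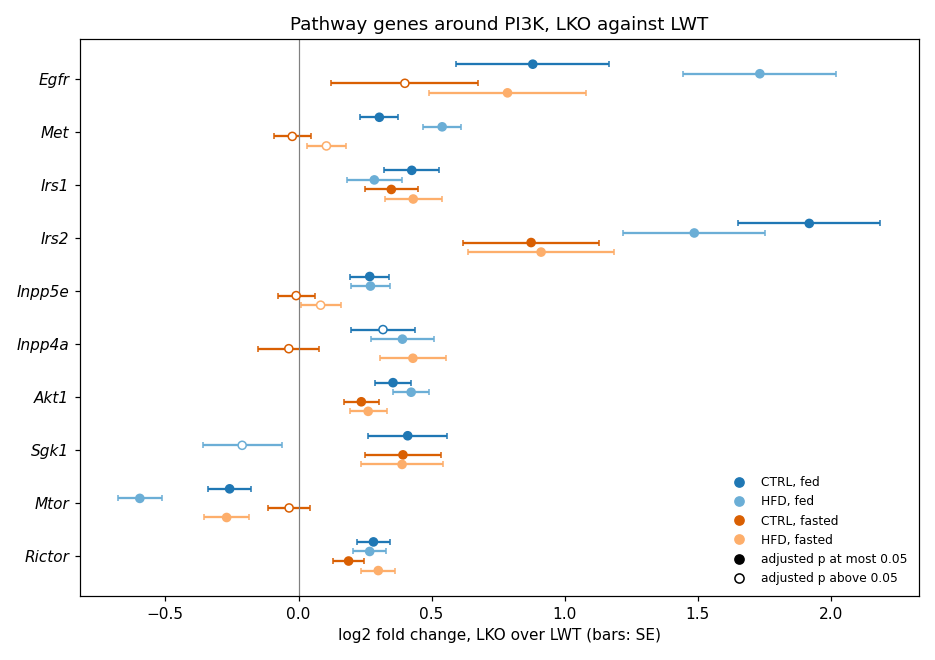
Log2 fold change of LKO over LWT mice with its SE for genes of the PI3K pathway in the 4 settings, with filled points for an adjusted p of at most 0.05. Irs2 lies to the right of 0 and is filled in all 4 settings, whereas Mtor lies to the left in all 4 and is filled in 3.

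Promoter sequence was looked at because Pik3r3, Pik3r1 and Pik3cb were each called lower in at least 1 genotype and at least 1 fasting comparison, and Pik3r3 alone in all of them. RefSeq (GRCm38.p6) lists 13 starts for the 7 genes. The 250 bases before each were searched on both strands for TGTTTAC, a forkhead motif, CACGTG, an E-box, CCAAT, and GGGCGG, a GC box. The GC box was found in 9 of the 13 member promoters, of 6 genes, where 32.7% of all 32851 promoters hold it. CCAAT was found in 4 of 13, of Pik3cb, Pik3cd, Pik3r1 and Pik3r3, where 33.8% of all promoters hold it. The forkhead motif was found in 1 of 13, of Pik3cg, where 3.17% of all promoters hold it, and the E-box in 0 of 13, where 6.02% do. The promoters below are those of 1 start each, for Pik3r3 and Pik3r1 the start with the most matches, and capitals mark CCAAT and GC box matches on either strand. They are at chr4:116221166-116221415 on the forward strand for Pik3r3, at chr13:101768218-101768467 on the reverse strand for Pik3r1 and at chr9:99140212-99140461 on the reverse strand for Pik3cb.
Pik3r3: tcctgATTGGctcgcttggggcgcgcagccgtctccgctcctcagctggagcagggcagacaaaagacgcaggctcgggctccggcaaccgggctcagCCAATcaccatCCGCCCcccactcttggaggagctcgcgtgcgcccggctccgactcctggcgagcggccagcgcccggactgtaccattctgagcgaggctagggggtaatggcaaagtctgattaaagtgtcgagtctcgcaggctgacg
Pik3r1: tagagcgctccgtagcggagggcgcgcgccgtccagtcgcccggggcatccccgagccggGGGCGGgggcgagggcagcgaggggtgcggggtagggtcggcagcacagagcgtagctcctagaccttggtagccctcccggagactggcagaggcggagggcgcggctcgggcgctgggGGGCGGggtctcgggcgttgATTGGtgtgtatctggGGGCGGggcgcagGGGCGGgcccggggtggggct
Pik3cb: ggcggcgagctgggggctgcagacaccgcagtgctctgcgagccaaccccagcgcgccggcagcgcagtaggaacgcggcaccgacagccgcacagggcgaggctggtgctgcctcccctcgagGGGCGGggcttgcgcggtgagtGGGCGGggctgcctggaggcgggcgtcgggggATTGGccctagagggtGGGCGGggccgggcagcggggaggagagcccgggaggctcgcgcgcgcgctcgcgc
These matches describe the letters of the window and are not binding sites. The GC content of these windows was 65.6% for Pik3r3, 76.4% for Pik3r1 and 78% for Pik3cb, where the median of all promoters was 52.4%. The other start of Pik3r1 had 42.4% and 0 matches, and the other starts of Pik3r3 had 58.8% and 48.8%, each with 1 GC box and 0 CCAAT.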

How the data were processed

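Livers of 48 mice were hybridised to one-colour Agilent arrays. Per the labels and the submitters' processing notes, the authors scanned the arrays and extracted spot intensity with Feature Extraction 10.10.1.1. The deposited scanner files give median signal intensity and flags per spot. A deposited table of log2 values, normalised by the authors, was used as an alternative. Here log2 median intensity was averaged over the spots of a probe, outlier spots left out, corrected for washing batch with the groups protected, then quantile normalised. A probe was kept if well above background on at least 5 of 6 arrays of a group. Differences were fitted with limma 3.58.1 in R 4.3.3, with array weights, statmod 1.5.0 and 1 fit over all groups, with Benjamini-Hochberg adjustment per contrast over every kept probe. The brightest probe stood for a gene. Named were the 7 members, the 3 genes closest to each by Pearson correlation and, per pathway list, at most 4 genes called in 1 direction in at least 2 of 4 genotype contrasts, by mean absolute fold change. An item of these lists is not reported here. Members, lists and tests were chosen with earlier results of these data known. The fit was tested on simulated data. Alternatives covered background correction, scaling, filter, weights, blocks, batches and single replicates left out.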

Additional observations from a re-analysis of the deposited data

Results flagged for a closer look

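In 72 groups of 6 mice, 9 held a mouse far from the others by Dixon's test, where chance gives about 1 in 20. They were, in normalised log2 signal, Pik3ca in fed LKO mice on CTRL diet (replicate 2 at 13.02, others 13.23 to 13.33) and Pik3cb in fed LWT mice on CTRL diet (replicate 1 at 9.05, others 8.69 to 8.82). For Pik3cd, the brighter probe had replicate 3 of the fed LKO mice on HFD at 7.05 (others 6.45 to 6.67). The second probe had replicate 2 of the fed LWT mice on CTRL diet at 6.83 (others 6.19 to 6.32) and replicate 3 of those on HFD at 6.21 (others 6.50 to 6.61). Pik3cg had replicate 4 of the fed LWT mice on CTRL diet at 6.62 (others 5.29 to 5.63) and replicate 6 of the fasted LWT mice on HFD at 5.36 (others 5.65 to 5.79). Its probe was well above background on 2 and 5 of the 6 arrays of these groups and on 19 of all 48, so that neither gap is read as a difference between mice. Pik3r1 had replicate 5 of the fed LKO mice on CTRL diet at 9.64 (others 9.99 to 10.16) and replicate 5 of the fasted LWT mice on HFD at 9.70 (others 10.18 to 10.45).

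The effect of the fast on the Pik3ca probe differed between genotypes by -0.32 over both diets (limma adjusted p = 0.00861), in a contrast added after the values had been seen.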

How the results depend on the processing

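Of the 26 called differences, none changed direction under any alternative run. The 11 calls for genotype became 5 in washing batch 2 alone and 3 with a fold over 1.5 required, and 10 to 11 when single replicates were left out. The 13 for fasting became 8 in washing batch 1 alone and 4 with that fold, and 12 to 14 without single replicates. The 2 for diet became 4 with processed signals scaled to the 75th percentile, with median scaling and with arrays of 1 nutritional state, 1 without the filter, without array weights and in washing batch 2 alone, 0 in washing batch 1 alone and 0 with that fold, and 1 to 3 without single replicates. The 0 of 42 interactions became 1 with normexp, with processed signals, with probes above background on all arrays and with slide as a block, 4 with adjustment over all contrasts together, and 0 to 2 without single replicates. The 1 call under each of those 4 alternatives was Pik3r3, diet by fasting in LWT mice, and the 4 were this one, Pik3r1 for genotype by fasting on CTRL diet and the Pik3ca probe for genotype by fasting on both diets. A batch alone holds 3 mice per group. Without single replicates, calls were lost for Pik3ca between genotypes in fasted mice on HFD (0.19, adjusted p = 0.0802 at most, limma), Pik3cd there (-0.32, adjusted p = 0.0636 at most, limma), Pik3cb for the fast in LKO mice on HFD and for diet in fed LWT mice, and Pik3r1 for the fast in LWT mice on HFD. Arrays of 1 nutritional state give no fasting value, and the filter on all arrays drops Pik3cg.

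Replicate numbers recur in every group, but same-numbered mice did not deviate together (median r 0.0138, range -0.340 to 0.320 over 168 pairs). With the replicate number as a block, the calls were 11 for genotype, 13 for fasting, 1 for diet and 0 for interactions. The diet call lost was Pik3cb in fed LWT mice (0.25, limma adjusted p = 0.054).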
